A study of Mus musculus with 6 samples.

Results

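The 10 genes described here encode the acyltransferases and lipins that build triglyceride, and they were examined in brown adipose tissue (BAT) of KRAP-/- and wild-type mice. They were taken by name from 18193 genes that carry a probe set with a single gene symbol, and the arrays hold 22 such probe sets for them. The glycerol phosphate pathway joins fatty acids to a glycerol backbone and supplies nearly all triglyceride stored by adipocytes. Glycerol-3-phosphate acyltransferases (Gpam, Gpat4) add the first fatty acid, 1-acylglycerol-3-phosphate acyltransferases (Agpat1, Agpat2, Agpat3) add the next and form phosphatidic acid, lipins (Lpin1, Lpin2, Lpin3) remove its phosphate to give diacylglycerol, and diacylglycerol acyltransferases (Dgat1, Dgat2) add the last fatty acid. In BAT, which burns fatty acids to produce heat, these enzymes refill the lipid droplets. Lipin-1 also acts in the nucleus as a partner of transcription factors, and loss of AGPAT2 in humans causes a congenital absence of fat.

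Messenger RNA was measured on Affymetrix mouse genome arrays, with 1 array for each animal, in 3 KRAP-/- mice (KO) and 3 of wild type (WT). KRAP is a protein that associates with the actin cytoskeleton, and in the KO mice exons 11 to 16 of its gene were replaced by a neomycin cassette in every tissue, so that effects arising in fat and elsewhere cannot be told apart. The animals were 3 pairs of littermates, which the study compared by number (KO 1 with WT 1, and so on). They were aged 32 weeks, backcrossed 6 times to C57BL6/J and fed normal chow, and all values below are listed in the order of pairs 1, 2 and 3.

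Signals are given as multiples of the array median, which lay between 16.5 and 20.4 intensity units, and a level of one probe set was not set against that of another. The brown adipocyte markers on the arrays were all above the array median in each animal (10 of 10, summed signal 3101 to 4002 in KO and 3130 to 3967 in WT), among them Ucp1. KRAP itself, under its symbol Itprid2, read 35.1 to 46.95 in KO and 42.2 to 56.6 in WT; the sources do not say whether this probe set lies inside the exons deleted, so it is no check of the genotype. Markers of other cell types differed between animals. The summed signal of 12 skeletal muscle markers was 1060 in KO 2 and 445.5 in WT 3 but 39.4 to 140 in the other arrays, and that of 11 hepatocyte markers was 74.2 in KO 3 and 5.87 to 7.13 elsewhere. That of 9 endothelial markers was 72.1 to 85.9 in KO and 89.2 to 96.7 in WT, without overlap. Among single tested probe sets, 7.16% had all KO arrays below all WT arrays. Of the 9 markers, 5 were lower in all 3 pairs, where 19.7% of all tested genes were, and none passed the adjusted test. The actin control probe sets, whose 3' to 5' signal ratio is higher in degraded RNA, stood at 3.80 on the WT 2 array and from 1.91 to 2.58 on the others. The same ratio of the pyruvate carboxylase control was 10.69 in KO 1, 8.99 in WT 1 and 52.9 in WT 2. On the other arrays it was 22.12 to 25.35. Fewer cells of a type and less RNA in each cell cannot be told apart in such bulk tissue.

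The question was whether the enzymes that assemble triglyceride differ in abundance between KRAP-deficient and wild-type BAT. After scaling to the array median, Gpat4 stood higher and Lpin1 lower in the KO littermate of each pair. Both Dgat genes lay slightly higher on balance on their brightest probe sets. At this scaling the brightest probe sets of Gpam, Agpat1, Agpat2, Agpat3 and Lpin2 had no common direction in the 3 pairs. None of these differences passed the adjusted test (limma with the pair as a block, smallest adjusted p of these genes 0.403). Over the whole array 0 of 22356 tested probe sets passed it (0%), while the unadjusted p was under 0.05 for 1911 (8.55%). Of the 22 probe sets, the 18 whose mean exceeded the array median entered the test. Among them, 4 were higher and 3 lower in all 3 pairs, where 12.4% and 18.4% of all tested probe sets were, and 3 had an unadjusted p under 0.05. In 0 of them did the groups separate fully, which 4.59% of all tested probe sets did with KO above WT and 7.16% with KO below. The number of arrays limits the precision, since the 95% confidence intervals of the fitted log2 differences were about as wide as the differences themselves or wider.

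**Figure D1:**
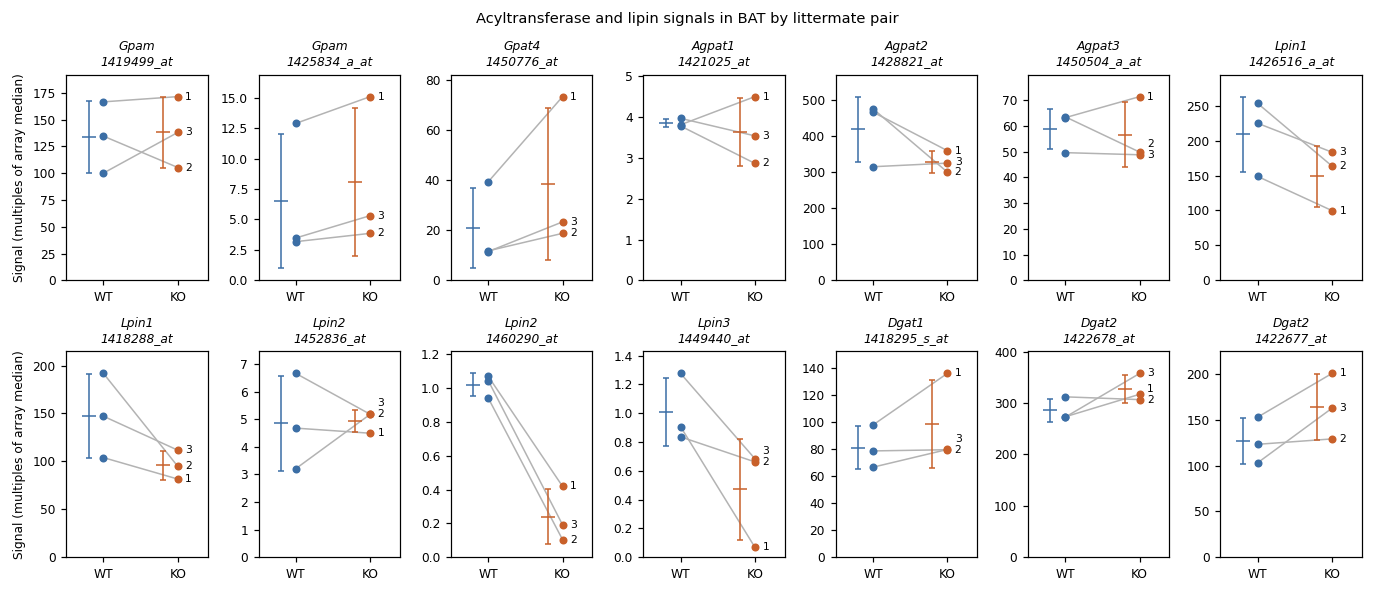
Signals of 14 probe sets of the 10 genes in BAT, in multiples of the array median on linear axes that start at 0. Drawn are the brightest probe set of each gene and the next one of Gpam, Lpin1 and Dgat2. The dim Lpin2 probe set 1460290_at was added because its groups did not overlap. Each point is 1 animal, each grey line a pair of littermates (numbered beside it), and bars are the mean and SD (n = 3); Gpat4 is higher and Lpin1 lower in the KO littermate of each pair, and the panels of Lpin3 and of the dim Lpin2 probe set lie near or below the array median.

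Gpat4 encodes an acyltransferase of the endoplasmic reticulum for the first step of the pathway. Its bright probe set (1450776_at) read 73.5, 18.8 and 23.4 in the KO mice against 39.4, 11.8 and 11.5 in their WT littermates. The KO littermate was higher in each pair, although the groups overlapped because WT 1 lay above KO 2 and KO 3. The means were 38.6 ± 30.4 in KO and 20.9 ± 16.03 in WT (SD, n = 3), and the KO over WT ratios were 1.87, 1.60 and 2.04 in pairs 1 to 3. The fitted log2 difference was 0.87 (95% interval 0.40 to 1.33), 1.82-fold, with an unadjusted p of 0.00341 by limma, where 3.41% of all tested probe sets were higher with a p under 0.05, and an adjusted p of 0.403. It was 0.79 to 0.96 with any 1 pair left out. The study's filter of 1.5-fold or more in all 3 pairs was met by this probe set alone among the 18, and by 124 of all tested probe sets in this direction (0.555%). None of the 18 met it downwards, as 0.819% of all did. Gpat4 passed the adjusted test in 2 alternatives, with an adjusted p of 0.00678 with an intensity trend and a robust prior and 0.0497 where a pseudocount replaced the floor, over a range of 0.00678 to 0.895 in all alternatives that gave one. The other Gpat4 probe set (1422841_at) was below the array median in every animal and was not tested. It read 0.91, 0.86 and 0.63 in the KO mice against 0.64, 0.35 and 0.46 in their WT littermates, higher in the KO littermate of each pair as well, with ratios of 1.43, 2.46 and 1.38 and groups that overlapped.

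Gpam encodes the mitochondrial enzyme for the same step, GPAT1, which is a classical target of insulin and SREBP-1c. Its bright probe set (1419499_at) read 171.5, 105.3 and 138.1 in the KO mice against 166.6, 134.6 and 100.1 in their WT littermates. The groups overlapped throughout, and the ratios of 1.03, 0.783 and 1.38 ran in different directions. The log2 difference was 0.05 (95% interval -0.49 to 0.59, limma adjusted p = 0.971). This interval overlapped that of Gpat4 (0.40 to 1.33), and the difference between these genes was not tested. The dimmer probe set (1425834_a_at) read 15.1, 3.86 and 5.31 in KO mice against 12.9, 3.18 and 3.48 in WT. It was higher in the KO littermate of each pair, with ratios of 1.17, 1.22 and 1.53 and a log2 difference of 0.37 (95% interval -0.10 to 0.84, limma adjusted p = 0.656). Pair 3, in which both probe sets had their highest ratio, holds the array with raised hepatocyte markers, and without it the differences were -0.16 and 0.25; the part of those cells was not tested.

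For some of these probe sets the difference between pairs exceeded that between genotypes. Gpat4 in pair 1 was 3.91 and 3.14 times the level of pairs 2 and 3 among KO animals, and 3.34 and 3.43 times among WT animals. For the dimmer Gpam probe set the same multiples were 3.91 and 2.84 in KO and 4.06 and 3.71 in WT, whereas for the brighter one they were 1.24 to 1.66. Lpin1 went the other way, with pair 1 at 0.61 and 0.544 of pairs 2 and 3 in KO and at 0.587 and 0.661 in WT on its brighter probe set. Over all tested probe sets, 146 (0.653%) had pair 1 at 2-fold or more above both other pairs in each genotype, and 0.604% had it at 2-fold or more below. Gpat4 and the dimmer Gpam probe set belonged to the former and none of the 18 to the latter. The former also held Ppargc1a, a coactivator of mitochondrial biogenesis, at 6.73 to 11.3 times, and Dio2, the deiodinase that activates thyroid hormone, at 3.96 to 10.9 times. Both genes were chosen after their values were seen. Pair 1 also had the lowest pyruvate carboxylase 3' to 5' ratios, at 10.69 in KO 1 and 8.99 in WT 1. The part of RNA quality in the differences between pairs was not tested.

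Agpat2 encodes the main enzyme of adipocytes for the second acylation. Its probe set (1428821_at) read 359.2, 299.8 and 324.6 in the KO mice against 466.1, 475.3 and 314.6 in their WT littermates. KO was lower in pairs 1 and 2, with ratios of 0.771 and 0.631, and level in pair 3, with 1.03. The log2 difference was -0.33 (95% interval -0.85 to 0.19, limma adjusted p = 0.713), and it was -0.17 without pair 2, which holds the WT array with the raised actin ratio, and -0.52 without pair 3. This probe set reached 51.9% of its array's maximum, the most of the 22.

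Agpat1 and Agpat3 showed smaller differences. Agpat1, a ubiquitous enzyme of the same family, read 4.51, 2.87 and 3.54 in KO mice against 3.81, 3.79 and 3.97 in WT on its brighter probe set (1421025_at), with a log2 difference of -0.11 (95% interval -0.62 to 0.40). Its dimmer probe set (1421024_at) was lower in the KO littermate of each pair, at 2.59, 1.39 and 1.97 against 2.86, 1.91 and 2.26, with a difference of -0.27 (-0.73 to 0.20). For Agpat3, which also acylates other lysophospholipids, the 4 probe sets gave log2 differences between -0.22 and -0.01, and none had a common direction in the 3 pairs. Its brightest probe set (1450504_a_at) read 71.4, 49.8 and 48.8 in KO mice against 63.2, 63.5 and 49.6 in WT, and the groups overlapped. The others overlapped as well, with 16.6 to 24.9 in KO and 18.8 to 25.9 in WT for 1433817_at, 3.82 to 4.37 and 3.91 to 4.38 for 1433818_at, and 15.9 to 19.4 and 15.8 to 20.8 for 1433819_s_at.

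Lpin1 is the main lipin of adipose tissue and muscle. Its brighter probe set (1426516_a_at) read 99.7, 163.5 and 183.4 in the KO mice against 148.7, 253.3 and 224.8 in their WT littermates. The KO littermate was lower in each pair, with ratios of 0.671, 0.645 and 0.816, but WT 1 lay below KO 2 and KO 3. The other probe set (1418288_at) read 81.5, 94.7 and 111.6 in KO mice against 103.9, 191.8 and 147.1 in WT, again lower in the KO littermate of each pair, with ratios of 0.784, 0.494 and 0.759.

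The log2 differences of Lpin1 were -0.50 (95% interval -0.96 to -0.04, limma adjusted p = 0.561) and -0.59 (-1.12 to -0.06, adjusted p = 0.547), that is 1.41-fold and 1.505-fold lower, and the unadjusted p values of this limma fit were 0.0386 and 0.0336. Lower signals at this unadjusted threshold were found for 5.14% of all tested probe sets. Without pair 2 the differences were -0.43 and -0.37, and without pair 1 they were -0.46 and -0.71. Skeletal muscle, which also expresses Lpin1, was most visible by its markers in KO 2 and WT 3, and the highest Lpin1 signals were in WT 2, whose summed muscle signal was 90.1. Of 6 tested white adipocyte markers none passed the adjusted test. In all 3 pairs 5 of them were lower in KO and 1, Retn, was higher (log2 difference 0.95), where 19.7% of all tested genes were lower and 10.9% higher. Lep had the largest log2 difference, -2.07 (limma adjusted p = 0.211), and the summed signal of 7 white adipocyte markers was 127.3 to 217.1 in KO and 205.4 to 257.2 in WT. The part of muscle, white adipocyte and endothelial RNA in the Lpin1 difference was not tested.

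Lpin2 and Lpin3 gave weak signals in this tissue. The brightest Lpin2 probe set (1452836_at) read 4.49, 5.18 and 5.18 in KO mice against 4.68, 6.66 and 3.21 in WT, with a log2 difference of 0.09 (95% interval -0.52 to 0.70, limma adjusted p = 0.950). A dimmer one (1452837_at) read 0.94, 1.23 and 0.50 in KO mice against 1.33, 1.002 and 1.22 in WT, a difference of -0.49 (-1.25 to 0.26) with pairs in different directions, which was -0.098 without pair 3 and -0.22 with the pseudocount. Its mean of 1.04 passed the filter only through WT (mean 1.18, against 0.89 in KO), which favours a lower KO value. Without pair 1 or without pair 2 this probe set failed the filter and was not tested. A further Lpin2 probe set (1460290_at) had a mean below the array median and was therefore not tested, yet its groups did not overlap.

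That probe set read 0.42, 0.10 and 0.19 in the KO mice against 1.07, 0.94 and 1.05 in their WT littermates. All KO animals lay below all WT animals. Among the tested probe sets, whose means lie above the array median, 7.16% did so. The share among untested probe sets was not counted, which holds for Lpin3 as well. Fitted without the filter on dim signals, this Lpin2 probe set had a log2 difference of -1.78 (95% interval -2.43 to -1.13, limma unadjusted p = 0.00408, adjusted p = 0.634). In that fit KO 2 and KO 3, which lay below the floor of 0.25, were set to it, so the size depends on the floor. The single Lpin3 probe set (1449440_at) behaved in a like way. It read 0.07, 0.66 and 0.68 in KO mice against 0.91, 0.84 and 1.28 in WT, without overlap, and its unfiltered log2 difference was -1.03 (-2.35 to 0.28, limma adjusted p = 0.739). Signals of this size cannot be told from background in the deposited values, which hold no detection call. The fourth Lpin2 probe set (1446316_at) was below the floor in 5 of 6 arrays and read at most 0.36.

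Dgat1 and Dgat2 encode unrelated proteins that catalyse the final, triglyceride-forming step. Dgat2 read 316.9, 306.5 and 357.5 in KO mice against 273.1, 311.9 and 272.4 in WT on its brightest probe set (1422678_at). KO was higher in pairs 1 and 3 and nearly level in pair 2, with ratios of 1.16, 0.983 and 1.31 and a log2 difference of 0.19 (95% interval -0.28 to 0.67, adjusted p = 0.834 by limma). Leaving out pair 3 gave 0.095 and leaving out pair 2 gave 0.30. The other Dgat2 probe set (1422677_at) read 200.8, 129.2 and 162.8 in KO mice against 153.0, 123.3 and 103.1 in WT, higher in the KO littermate of each pair, with ratios of 1.31, 1.05 and 1.58. Its log2 difference was 0.37 (-0.13 to 0.87, limma adjusted p = 0.673), 0.53 without pair 2 and 0.23 without pair 3. Both Dgat2 probe sets had their highest ratio in pair 3, which holds the array with raised hepatocyte markers. The part of those cells was not tested.

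The brighter Dgat1 probe set (1418295_s_at) read 136.3, 79.7 and 79.9 in KO mice against 98.0, 78.8 and 66.7 in WT. It was higher in the KO littermate of each pair, by ratios of 1.39, 1.01 and 1.20, with a log2 difference of 0.25 (95% interval -0.23 to 0.73, limma adjusted p = 0.772) that was 0.14 without pair 1. The dimmer probe set (1445229_at) read 2.56, 2.94 and 3.74 in KO mice against 3.47, 3.11 and 2.22 in WT, with a difference of 0.08 (-0.57 to 0.72) and ratios of 0.737, 0.945 and 1.69. It was lower in pairs 1 and 2, and without pair 3 the difference was -0.26.

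**Figure D2:**
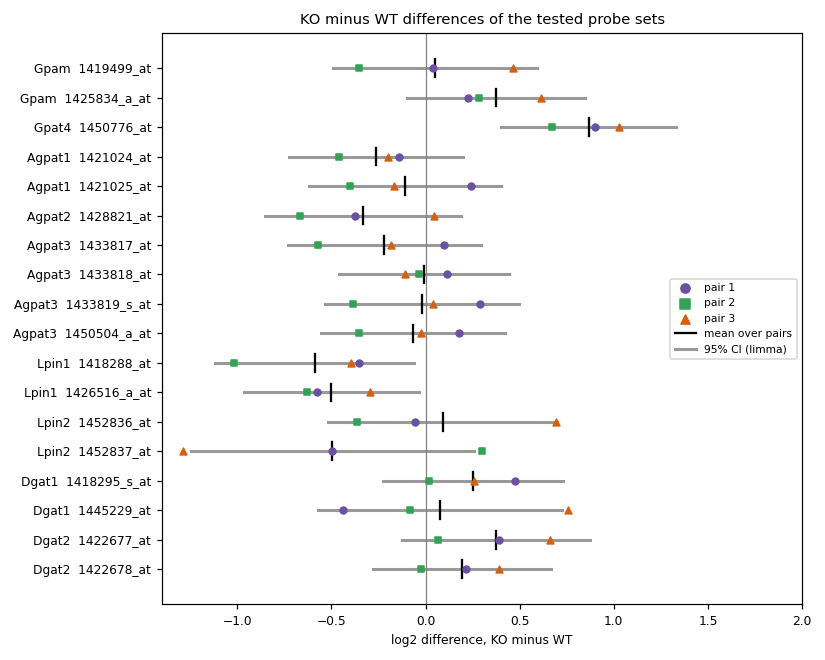
KO minus WT log2 differences of the 18 tested probe sets of the 10 genes. Symbols are the 3 littermate pairs, black ticks their mean and grey bars the 95% confidence interval from limma; the intervals of Gpat4 (0.40 to 1.33) and of both Lpin1 probe sets (upper ends -0.04 and -0.06) leave out 0, and none passed the adjusted test.

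Taking the brightest tested probe set for each gene, 9 of the 10 genes were tested, all but Lpin3. Of these, 2 were higher in all 3 pairs (Gpat4 and Dgat1) and 1 lower (Lpin1), and the share over all 11140 tested genes was 10.9% higher and 19.7% lower. The median log2 difference of the 9 was 0.05 (-0.09 to 0.25 with 1 pair left out), against -0.07 over all genes. By pair, 3, 7 and 3 of the 9 genes were lower in KO in pairs 1 to 3, where 53.2%, 71.8% and 42.9% of all tested genes were. Most genes of the array also read lower in KO in pair 2, while Gpat4 was higher there. The array medians that served for scaling were 20.06 for KO 2 and 16.53 for WT 2. Over all tested probe sets the median log2 difference was -0.052. It was 0.0099 with signals as deposited and 0.0012 with quantile normalization. The part of the scaling in the counts by pair was not tested.

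Neighbouring steps of glycerolipid metabolism were described by lists of named genes, again on the brightest tested probe set. Of 5 tested genes that supply glycerol 3-phosphate, 1 was higher and 2 lower in all 3 pairs (median log2 difference 0.06). Pck1, which encodes an enzyme on the route from pyruvate to glycerol 3-phosphate, differed by 0.36 (limma adjusted p = 0.663), and the glycerol-3-phosphate dehydrogenases Gpd2 and Gpd1 by -0.42 and -0.27 (adjusted p = 0.674 and 0.764). Of 10 tested further acyltransferases of glycerolipids, 1 was higher and 2 lower (median -0.06). Mboat7, an acyltransferase for lysophosphatidylinositol, differed by 0.32, Agpat4 by -0.39 and Lpgat1 by -0.15. Gpat3, another glycerol-3-phosphate acyltransferase, had KO over WT ratios of 1.90, 0.696 and 0.693 and a log2 difference of -0.04.

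Phosphatidic acid and diacylglycerol also feed the synthesis of phospholipids. In that list 1 of 17 tested genes was higher and 5 were lower in all 3 pairs. The median log2 difference was -0.22, and it was 0.04 without pair 2. Averaging all probe sets for each gene gave -0.10, and dropping the filter on dim signals gave -0.06. Pgs1, which opens the branch to cardiolipin, read 2.47, 3.50 and 2.91 in KO mice against 3.64, 5.44 and 5.51 in WT, a log2 difference of -0.71 with no overlap between the groups (limma adjusted p = 0.440). Cds2, which turns phosphatidic acid into CDP-diacylglycerol and so draws on the same substrate as the lipins, read 13.97, 9.44 and 10.5 in KO mice against 17.9, 18.6 and 14.9 in WT, a difference of -0.61 with no overlap (adjusted p = 0.515). The choline kinase Chka differed by -0.59 (adjusted p = 0.5005). These 3 genes were lower with an unadjusted p under 0.05 in the limma fit, as were 555 of all 11140 tested genes. In either direction 8.20% of all tested genes had such a p.

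Among 8 tested genes of triglyceride breakdown, 1 was higher and 1 lower in all 3 pairs (median 0.04). The carboxylesterase Ces1d differed by 0.32 (limma adjusted p = 0.707) and Pnpla3, a lipase-family protein of lipid droplets, by -0.84 (adjusted p = 0.406). Of 11 tested genes of lipid droplet formation and the lipin phosphatase complex, 1 was higher and 2 lower (median -0.06), namely the droplet proteins Cidec at 0.47 and Plin2 and Plin4 at -0.81 and -0.47 (adjusted p = 0.646, 0.505 and 0.638). Ctdnep1 and Cnep1r1, whose products dephosphorylate the lipins, differed by 0.17 and -0.04, with pairs in different directions.

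**Figure D3:**
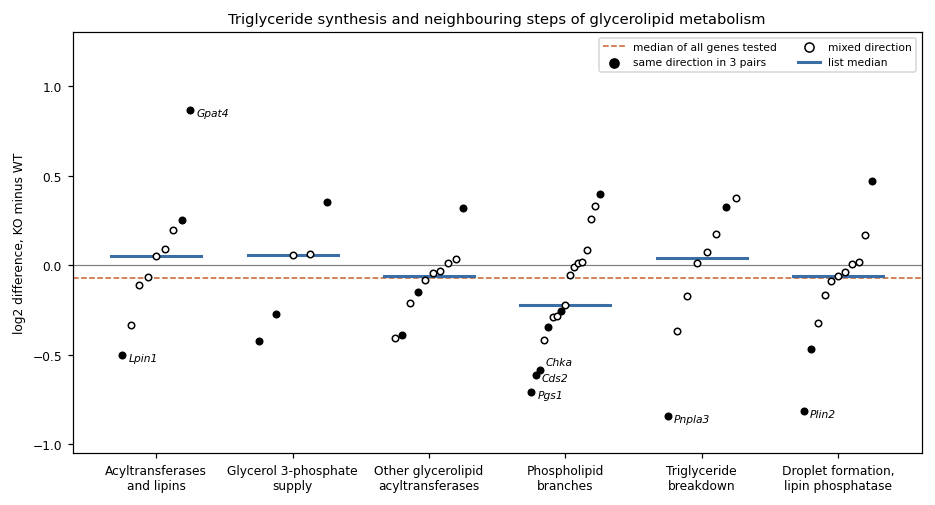
KO minus WT log2 differences of the 9 tested genes and of 5 lists of neighbouring steps, each gene on its brightest tested probe set. Filled circles had the same direction in all 3 pairs, blue bars are list medians and the dashed line is the median of all tested genes (-0.07); genes beyond 0.5 in size are named, and Gpat4 at 0.87 lies highest of those drawn.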

How the data were processed

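The authors hybridised BAT RNA of 6 mice, each to an array of its own. The deposited values are 1 linear signal intensity for each probe set, made by the authors with GCOS per the labels; no source gives its version or algorithm, and array medians differ, so the scaling to the chip median that the study describes is not in these values. Of 45101 rows, 64 control probe sets were set aside. Signals were scaled to a median of 1 on every array, set to at least 0.25 and taken to log2, and probe sets with a mean signal above 1 were tested. Gene symbols came from a platform annotation table; 34945 probe sets carried 1 symbol, 932 several and 9160 none, and 34741 of the first were matched to the GRCm38.p6 gene table by identifier. The 10 genes, the gene lists and the tests were chosen with earlier results of these data known, and from each list up to 3 genes with the largest difference and the same direction in all pairs were named. Gpat3, Ctdnep1 and Cnep1r1 were named for their function.

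A linear model with terms for genotype and pair (limma 3.58.1, R 4.3.3) gave the KO minus WT differences, and p-values were adjusted over 22356 probe sets by the method of Benjamini and Hochberg and read at 0.05. The numbers in the labels are those by which the study compared littermates; same-numbered arrays deviated from their groups with correlations of 0.446, 0.0847 and 0.160, and others with -0.359 to 0.281. The model was run on simulated arrays with planted differences and independent noise. These held no pair effects, other cell types or differences in RNA quality, so the check does not cover them. Alternatives were other scalings, floors, a pseudocount, filters, another prior, no pair block, the mean over probe sets and each pair left out.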

Additional observations from a re-analysis of the deposited data

How the results depend on the processing

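The count of probe sets that passed the adjusted test over the whole array, 0 as reported, was 123 with a pseudocount of 1, 40 where only means above 2 were tested, 311 under a prior that was robust and followed intensity, and 0 to 224 with 1 pair left out (224 without pair 1). Without the replicate block it was also 0, with 1283 probe sets at an unadjusted p under 0.05, and the block changed no adjusted call, while the 3 probe sets of these genes at an unadjusted p under 0.05 became 0. Of the probe sets of the 10 genes, 1 passed with the pseudocount and 1 with the trend, in both cases that of Gpat4 (adjusted p = 0.0497 and 0.00678 by limma). Gpat4 stayed higher and Lpin1, Agpat2, Dgat1 and Dgat2 kept their sign on the brightest probe set in all 12 alternatives. With 1 pair left out, only the pairs that remained had to share a direction, a looser condition than all 3, so those counts are not on the same measure. The count of genes lower in every pair was 2 with signals as deposited, with quantile normalization, without a filter and with the mean over probe sets, and 1 to 3 with 1 pair left out. The count higher in every pair was 3 with signals as deposited and with quantile normalization, and 2 to 4 with 1 pair left out. Under each of those other scalings, 5 probe sets of these genes had an unadjusted p under 0.05 in the limma fit. Leaving out 1 pair gave log2 differences of -0.28 to 0.038 for Agpat1, -0.19 to 0.076 for Agpat3, -0.16 to 0.25 for Gpam, -0.21 to 0.32 for Lpin2, -0.26 to 0.34 for the dimmer Dgat1 probe set, and -0.073 to 0.039 and -0.17 to 0.17 for the Agpat3 probe sets 1433818_at and 1433819_s_at, so their sign depended on the pair left out, and the mean over probe sets gave -0.20 for Lpin2. The last 2 Agpat3 probe sets also turned to 0.051 and 0.043 with signals as deposited and to 0.038 and 0.057 with quantile normalization. With 1 pair left out, each list median took both signs, at -0.091 to 0.15 for glycerol 3-phosphate supply, -0.14 to 0.045 for other acyltransferases, -0.17 to 0.044 for the phospholipid branches, -0.060 to 0.21 for triglyceride breakdown and -0.10 to 0.097 for droplet formation. The cause was not tested.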
